A study of Mus musculus with 74 samples.

Results

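The regulators of the primitive streak and mesendoderm were followed through RNA-seq of mouse embryonic stem (ES) cells in which Nanog was induced or removed. The 9 genes, of 37620 in the deposited tables, were taken as a named set: the T-box factors T (Brachyury), Eomes and Tbx6, the homeobox factors Mixl1, Gsc and Lhx1, the forkhead factor Foxa2, the basic helix-loop-helix factor Mesp1 and the secreted antagonist Cer1. Each had 1 row in both tables, and the question was whether sustained Nanog favoured or blocked them when LIF was withdrawn. All 35 libraries were used. SunTag cells, derived from E14Tg2a, carry a Dox-inducible dCas9 whose GCN4 epitopes gather an scFv-GFP-VP64 activator at the site of a guide RNA, so that Dox raises transcription of the endogenous gene. Nanog SunTag cells carry a Nanog guide in the clones C1 and C2, and Nanog/Otx2 SunTag cells are 1 derived clone of each (C1ON3 and C2ON3) with an added Otx2 guide. Both were grown in serum for 3 days with LIF and no Dox (+LIF -Dox; 3 Nanog and 3 Nanog/Otx2 libraries), with LIF and Dox (+LIF +Dox; 2 and 4), without either (-LIF -Dox; 3 and 4), or without LIF and with Dox (-LIF +Dox; 3 and 4). 44iN cells lack endogenous Nanog and express a Nanog transgene under Dox. They were taken in Dox (+Dox, 2 libraries), 24 h after its removal (-Dox 24h, 2) and after long-term growth without it (-Dox LT, 2), beside Tg2a cells, the wild type, kept in FCS (3). All 44iN and Tg2a cells were grown with LIF, so comparisons among them do not test its withdrawal. The labels do not say whether libraries of 1 clone came from separate cultures, so p-values measure the spread between these libraries, which may in part be technical.

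The primitive streak is where epiblast cells of the gastrulating embryo leave the epithelium to form mesoderm and definitive endoderm. Nodal, Wnt3 and Bmp4 signals induce it, and the T-box factors Eomes and T and the homeobox factor Mixl1 are switched on there. Gsc, Lhx1, Foxa2 and Cer1 mark its anterior, endoderm-forming descendants while Mesp1 and Tbx6 mark mesoderm. ES cells held by LIF in serum resemble an earlier stage, and on LIF withdrawal they move towards a primed epiblast state from which the streak genes can be induced. Nanog is a homeobox factor of the pluripotency network, and Otx2 is a homeobox factor of the primed epiblast.

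The guides are shown because they set which promoters Dox acted on. Each is printed 5′ to 3′ in lower case and is followed by its 3-base PAM in capitals.
Nanog guide: cttcccactagagatcgccaGGG
Otx2 guide: aatgtagagcgtgcatttggAGG
In mm9 the Nanog guide matches the plus strand of chr6:122657269-122657288, with its 5′ end 238 bases upstream of the annotated start of Nanog. The Otx2 guide matches the minus strand of chr14:49282649-49282668, inside an intron of Otx2 and 121 bases upstream of the nearest of its 7 annotated transcript starts. Neither lies in one of the 9 genes.

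The libraries held 6107512 to 92244655 estimated counts (median 29298745), and the shallowest was Nanog/Otx2 +LIF -Dox C2ON3-1. The induced gene followed its label. Nanog was at 1974 to 8484 normalised counts in the 7 -LIF -Dox libraries of both lines, and at 31700 to 55640 in the 7 -LIF +Dox libraries. In 44iN cells it was at 13370 to 18390 with Dox, 706 to 740 after 24 h without it and 228 to 276 after long-term removal. Otx2 was at 4074 ± 859.8 normalised counts (SD, n = 4) in -LIF -Dox and 7173 ± 238.3 (SD, n = 4) in -LIF +Dox Nanog/Otx2 cells. The summed level of 8 naive pluripotency genes (Esrrb, Klf4 and others) was 2161 to 3770 in -LIF -Dox, 15290 to 22870 in -LIF +Dox and 55400 to 76150 in the SunTag libraries with LIF. Of the other marker lists, 6 primed epiblast genes summed to 6185 to 16540 with LIF in the SunTag libraries, 83920 to 123800 in -LIF -Dox and 42590 to 78920 in -LIF +Dox. The 6 neurectoderm genes with a row summed to 1354 to 3952 in -LIF -Dox, 868.6 to 1783 in -LIF +Dox and 189.8 to 716.9 with LIF in SunTag cells, and Neurog2 was at 0 in 6 of the 12 conditions. The 7 trophoblast genes, a lineage that also expresses Eomes, summed to 742 to 2555 over all libraries and to 1280 to 2093 in SunTag cells with LIF against 742 to 1535 without it. In the Nanog SunTag cells the libraries with LIF carry 1 prefix in their names and those without LIF another, so LIF and that series cannot be told apart there, whereas all 15 Nanog/Otx2 libraries share 1 prefix.

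Eomes was the most abundant of the regulators. It is a T-box factor needed for epiblast cells to leave the streak and for definitive endoderm, and it lies on chromosome 9 of mm9 (118387330 to 118395250, plus strand; ENSMUSG00000032446). Per kilobase of exon it ranked first of the 9 genes in 11 of the 12 conditions, at 21.1 to 135 normalised counts per kb. The exception was long-term Nanog-null 44iN cells, in which Foxa2 (39.2 normalised counts per kb) lay above Eomes (32.9). Over single libraries Eomes ranged from 72.4 to 677 normalised counts, and it was the only one of the 9 genes with more than 3 counts in all 35. T, Tbx6, Mixl1 and Foxa2 peaked at 93.2, 57.8, 63.3 and 106 normalised counts, and their highest raw counts were 253, 121, 68 and 221. The other members were close to absent: Gsc had at most 11 counts, Lhx1 17, Mesp1 7 and Cer1 12 in any library. They were at or under 3 counts, the limit of what a count of 0 allows, in 24 (Gsc), 17 (Lhx1), 30 (Mesp1) and 31 (Cer1) of 35 libraries.

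**Figure D1:**
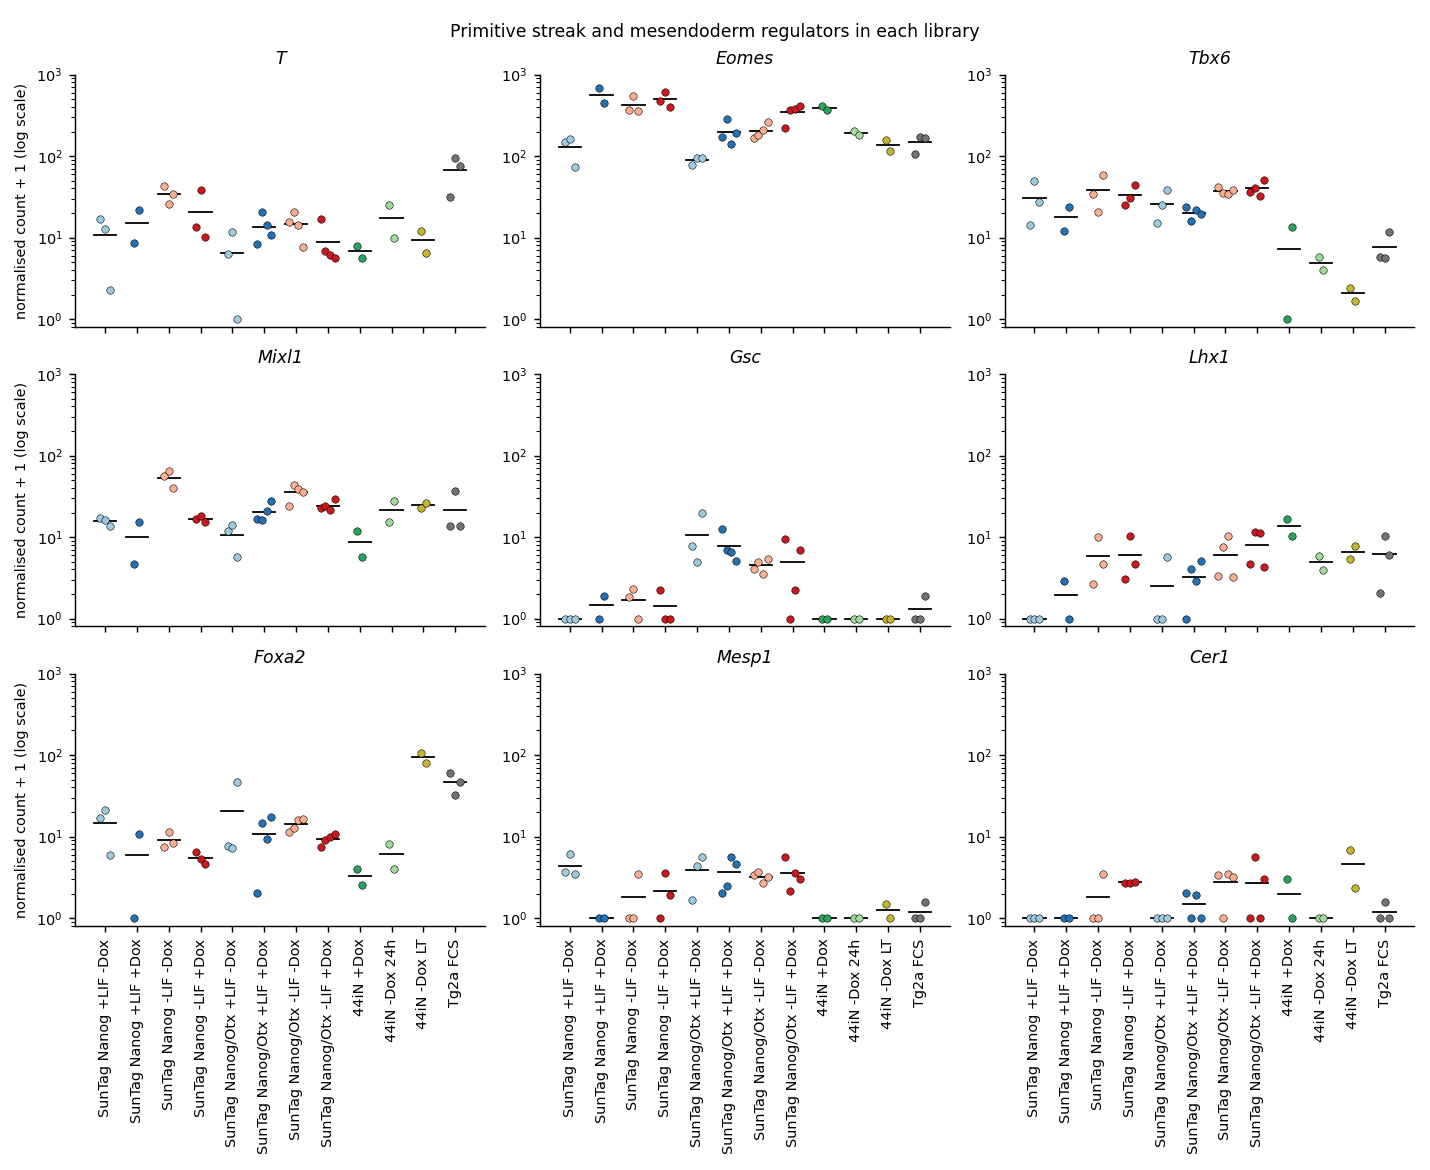
Normalised count + 1 of each of the 9 genes (log axis) in the 35 libraries, grouped by condition; points are libraries and bars are condition means. Eomes sits between 72.4 and 677 in every library, the mean of T is highest in Tg2a cells and those of Foxa2 in long-term 44iN and Tg2a cells, and Gsc, Lhx1, Mesp1 and Cer1 stay at or below 18.5 normalised counts.

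The RefSeq promoter windows (GRCm38.p6, from 250 bases before to 50 after each start) of Eomes, the member that moved most often, and of T are shown to give their sequence context, on the plus strand. In the T window the capitals mark a match to CTTTGA, a core of TCF/LEF sites, read on the minus strand.
Eomes promoter, chr9:118477939-118478238: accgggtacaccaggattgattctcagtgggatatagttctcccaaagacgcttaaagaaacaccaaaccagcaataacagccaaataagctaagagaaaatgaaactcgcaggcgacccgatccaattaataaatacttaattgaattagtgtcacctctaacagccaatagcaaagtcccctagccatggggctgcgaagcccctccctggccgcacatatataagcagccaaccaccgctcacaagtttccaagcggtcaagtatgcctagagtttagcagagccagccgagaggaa
T promoter, chr17:8434173-8434472: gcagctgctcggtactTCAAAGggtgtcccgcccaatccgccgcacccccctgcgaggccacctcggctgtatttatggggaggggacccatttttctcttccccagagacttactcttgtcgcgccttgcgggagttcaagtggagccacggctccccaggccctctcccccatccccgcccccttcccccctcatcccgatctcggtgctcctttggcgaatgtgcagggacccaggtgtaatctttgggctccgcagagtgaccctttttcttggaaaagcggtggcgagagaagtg
Of the 9 genes, 8 had windows in the table used, 10 in all. CTTTGA was found, on either strand, in windows of 3 genes (T, Mesp1 and Foxa2) and in 16.0% of all 32851 windows. GGTGTGA, a T-box core, was found for Mesp1 alone (3.98% of all windows), and TAATGG, a Nanog-class homeodomain core, for Foxa2 alone (7.73%). AATNCACA, the FOXH1 motif (3.6% of all windows), and TAATCC, the core bound by Otx2 and Gsc (7.06%), were found in none of the 10. The Eomes window held none of these letters. These are matches of letters and not sites.

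LIF withdrawal without Dox asked where the genes go as the cells leave self-renewal. Eomes and Mixl1 rose in both lines, T lay higher in the Nanog SunTag cells without passing the test, and Tbx6 was not called. Of the 4 members that passed the filter on low counts in the Nanog SunTag cells (T, Eomes, Mixl1 and Tbx6), 2 were called higher, where 41.5% of all genes were called in either direction and 20.2% higher. T passed that filter through the -LIF -Dox libraries alone, where it was highest. In these bulk libraries, more cells expressing a gene and more RNA per cell cannot be told apart.

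In Nanog SunTag cells Eomes was at 147, 161 and 72.4 normalised counts in the 3 +LIF -Dox libraries (C1-1, C2-1 and C2-2) and at 363, 551 and 360 in the 3 -LIF -Dox libraries (C1-1, C1-2 and C2-1). The groups did not overlap. This was a log2 fold change of 1.74 (SE 0.33, edgeR quasi-likelihood test, adjusted p = 0.00149). In Nanog/Otx2 cells, likewise without Dox, Eomes was at 77.1, 93.0 and 92.6 with LIF and at 166, 178, 208 and 263 without it. These groups did not overlap either, and the log2 fold change was 1.19 (SE 0.27, adjusted p = 0.0017) among libraries of 1 name series.

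Mixl1, a homeobox factor of the streak that guides mesendoderm towards endoderm (chromosome 1, 182623174 to 182627165, minus strand; ENSMUSG00000026497), showed the same direction at a lower range of counts. It was at 16.1, 15.1 and 12.5 normalised counts in +LIF -Dox and at 54.6, 63.3 and 39.3 in -LIF -Dox Nanog SunTag libraries, with a log2 fold change of 1.84 (SE 0.44, adjusted p = 0.00615). In Nanog/Otx2 cells it was at 10.7, 13.0 and 4.63 with LIF and at 22.7, 42.3, 38.3 and 34.5 without it (1.59, SE 0.33, adjusted p = 0.00095). In both lines every library without LIF lay above every library with it. The values with LIF rested on 6 to 10 counts in the Nanog line and 1 to 23 in the Nanog/Otx2 line. The value of 4.63 was 1 count in the shallowest library, C2ON3-1, where 3 counts correspond to 13.9 normalised counts. The calls of Eomes and Mixl1 held in both lines when each library was left out in turn. Here 2 of the 4 tested members (Eomes, Mixl1, Tbx6 and Foxa2) were called, against 49.8% of all genes in either direction and 24.6% higher.

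T, the T-box factor of nascent mesoderm and notochord (chromosome 17, 8627288 to 8635361, plus strand; ENSMUSG00000062327), was at 16.1, 11.7 and 1.25 normalised counts in +LIF -Dox and at 41.5, 24.6 and 33.2 in -LIF -Dox Nanog SunTag libraries. Those groups did not overlap, but rested on 1 to 51 counts. The log2 fold change was 1.91 (SE 0.78) with an adjusted p of 0.0674 by edgeR, and an adjusted p of 0.0468 by DESeq2, and T was called without +LIF -Dox C1-1 (2.46, adjusted p = 0.0427). In Nanog/Otx2 cells T stood at 5.37, 10.8 and 0 with LIF and at 14.4, 19.8, 13.3 and 6.68 without it, and it was not tested there because no condition passed the filter. Tbx6, which commits cells to paraxial mesoderm (chromosome 7, 133924997 to 133929074, plus strand; ENSMUSG00000030699), had log2 fold changes of 0.28 (95% interval -0.88 to 1.44, adjusted p = 0.693) in the Nanog line and 0.69 (0.07 to 1.31, adjusted p = 0.0599 by edgeR and 0.0454 by DESeq2) in the Nanog/Otx2 line. Without the shallowest library, Nanog/Otx2 +LIF -Dox C2ON3-1, Tbx6 was called (0.91, adjusted p = 0.0152).

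Dox without LIF asked whether sustained Nanog blocks or favours these genes as the cells leave LIF. In Nanog SunTag cells Mixl1 fell, to values that overlapped those in LIF, and no change of Eomes, T or Tbx6 was detected. Mixl1 was thus the only one of the 4 tested members to be called, where 5.14% of all genes were called in either direction and 1.54% lower.

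Mixl1 was at 54.6, 63.3 and 39.3 normalised counts in -LIF -Dox and at 15.5, 17.2 and 14.5 in the -LIF +Dox libraries (C1-1, C1-1b and C2-2), so that the lowest library without Dox lay above the highest with it. This gave a log2 fold change of -1.70 (SE 0.41, 95% interval -2.59 to -0.81, adjusted p = 0.0325 by edgeR and 0.00315 by DESeq2). Against +LIF -Dox cells, the -LIF +Dox cells differed in Mixl1 by a log2 fold change of 0.14 (95% interval -0.85 to 1.13), and the groups overlapped. The call was lost when any 1 of the 6 libraries compared was left out, with log2 fold changes of -1.86 to -1.54 and adjusted p of 0.0519 to 0.155, and without the filter on low counts (-1.69, adjusted p = 0.0575).

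Eomes was at 363, 551 and 360 normalised counts in -LIF -Dox and at 470, 617 and 396 in -LIF +Dox. The groups overlapped, and the log2 fold change of 0.25 had an interval of -0.41 to 0.91 (adjusted p = 0.756), so that neither a small fall nor a rise could be told from no change. T was at 41.5, 24.6 and 33.2 without Dox and at 12.5, 36.9 and 9.04 with it. The C1-1b library lay within the range without Dox and the others below it (-0.76, 95% interval -2.20 to 0.68, adjusted p = 0.62). Tbx6 was at 33.4, 19.4 and 57.8 without Dox and at 24.2, 30.0 and 43.4 with it (-0.16, 95% interval -1.27 to 0.95).

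**Figure D2:**
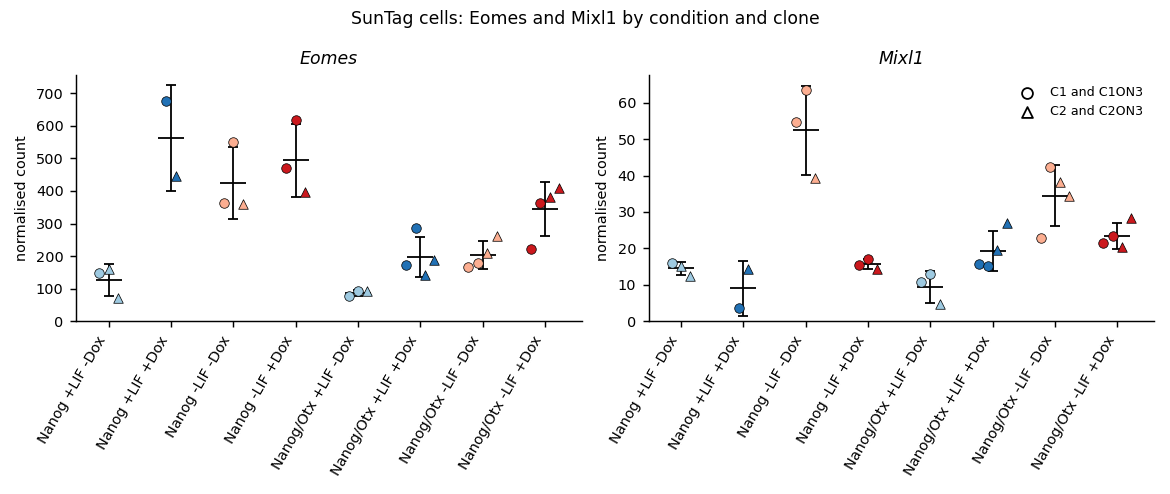
Normalised counts of Eomes (left) and Mixl1 (right) in the 26 SunTag libraries by condition; circles are libraries of C1 or C1ON3, triangles of C2 or C2ON3, and bars give the mean and SD. Without LIF, Mixl1 is at 39.3 to 63.3 without Dox and 14.5 to 17.2 with Dox in the Nanog line, whereas Eomes overlaps between the same libraries.

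Dox with LIF asked what raised Nanog does while the cells self-renew. Eomes rose in both lines, and in Nanog SunTag cells it was the 1 call among 4 tested members, where 0.563% of all genes were called and 0.422% higher. It was at 147, 161 and 72.4 normalised counts in the +LIF -Dox libraries and at 677 (C1-1) and 447 (C2-1) in the +LIF +Dox libraries, with no overlap. Its log2 fold change was 2.14 (SE 0.35, 95% interval 1.38 to 2.91, adjusted p = 0.0234). The library of C1 with Dox was the highest for Eomes of all 35, and it also had the highest Nanog. The call was lost without +LIF +Dox C1-1 (1.84, adjusted p = 0.155), +LIF -Dox C2-1 (2.36, 0.0618), +LIF -Dox C2-2 (1.84, 0.0752) or -LIF +Dox C1-1 (2.16, 0.0519). With 2 libraries in Dox and LIF, Nanog itself, whose groups did not overlap, had an adjusted p of 0.0793, at a log2 fold change of 1.74.

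Mixl1 was at 16.1, 15.1 and 12.5 normalised counts without Dox and at 3.73 and 14.4 with it in LIF, and its log2 fold change of -0.54 had an interval of -1.73 to 0.65. T (0.76, -1.20 to 2.71) and Tbx6 (-0.78, -2.16 to 0.60) were not separated from no change either. Thus for Eomes the Dox effect had a log2 fold change of 2.14 with LIF and 0.25 without it. The difference of these was -1.89 (SE 0.46, 95% interval -2.91 to -0.88), which missed the threshold in edgeR (adjusted p = 0.0665). It passed with the clone as a replicate block (-1.81, adjusted p = 0.0267), in DESeq2 (-1.92, adjusted p = 0.00381) and without the filter (-1.86, adjusted p = 0.0321). No member was called for this interaction by edgeR, 1 of 4 (Eomes) had an unadjusted p under 0.05 and 1 was called by DESeq2, against 1.93% of all genes called by edgeR and 15.2% at an unadjusted p under 0.05.

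Comparing -LIF +Dox with +LIF -Dox cells asked whether Nanog in place of LIF keeps the genes at their level in LIF. Eomes rose: it was at 470, 617 and 396 normalised counts with Nanog and no LIF, above all 3 libraries in LIF, and the log2 fold change was 1.99 (SE 0.33, adjusted p = 0.00139) and held when each library was left out in turn. Eomes was 1 call among 4 tested members, where 28.1% of all genes were called. The log2 fold changes of T (1.14, 95% interval -0.58 to 2.86) and Tbx6 (0.12, -1.03 to 1.27) were not separated from 0.

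**Figure D3:**
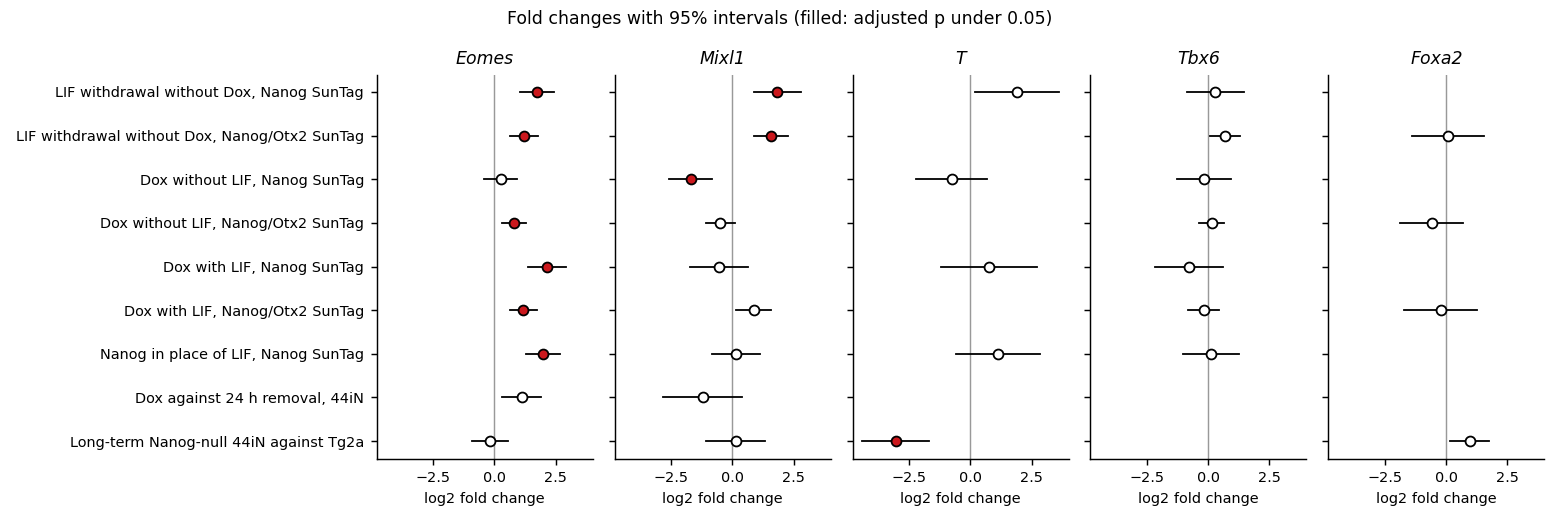
Log2 fold changes of Eomes, Mixl1, T, Tbx6 and Foxa2 with 95% intervals in 9 comparisons between conditions (the direct comparison of the lines is not drawn), where they passed the filter on low counts; filled points have an adjusted p under 0.05. Eomes is filled in 6 comparisons and Mixl1 in 3, with Mixl1 at 1.84 on LIF withdrawal and -1.70 with Dox without LIF in the Nanog line.

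In Nanog/Otx2 SunTag cells Dox induced both genes. Eomes rose with Dox without LIF as well as with it, and Mixl1 was not called. Of the 4 tested members Eomes was called in each case, where 17.3% of all genes were called without LIF (11.2% higher) and 22.9% with LIF (12.9% higher). Without LIF Eomes was at 166, 178, 208 and 263 normalised counts without Dox and at 223, 364, 382 and 409 with it. The library C1ON3-1 with Dox (223) lay inside the range without Dox, and the other 3 above it. The log2 fold change was 0.80 (SE 0.23, adjusted p = 0.0248). The call was lost without -LIF -Dox C1ON3-1 (0.71, adjusted p = 0.0622), C1ON3-2 (0.75, 0.065) or C2ON3-1 (0.81, 0.0553), or without -LIF +Dox C1ON3-2 (0.77, 0.0647), C2ON3-1 (0.74, 0.0604) or C2ON3-2 (0.70, 0.0696). With LIF Eomes was at 77.1, 93.0 and 92.6 without Dox and at 172, 285, 141 and 189 with it, without overlap (1.19, SE 0.27, adjusted p = 0.00582), a call that held when each library was left out in turn.

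Mixl1 in these cells was at 22.7, 42.3, 38.3 and 34.5 normalised counts in -LIF -Dox and at 21.4, 23.4, 20.3 and 28.3 in -LIF +Dox. The C1ON3-1 library without Dox lay within the range with Dox and the other 3 above it (log2 fold change -0.49, 95% interval -1.06 to 0.09, adjusted p = 0.253). With LIF Mixl1 was at 10.7, 13.0 and 4.63 without Dox and at 15.7, 15.1, 19.7 and 26.97 with it, without overlap (0.87, 95% interval 0.16 to 1.58, adjusted p = 0.071). The value of 4.63 was 1 count in the shallowest library. The difference between the Dox effects without and with LIF was -1.36 (SE 0.43), with an adjusted p of 0.0596 by edgeR. With clone and number as a replicate block it was -1.21, with an adjusted p of 0.0439. That block used the numbers of the sample titles, and +LIF -Dox C2ON3-1 has another number in its deposited column name. A block by the column names was not tested. It was also called without -LIF -Dox C1ON3-1 (-1.53, adjusted p = 0.0314). No member was called for this interaction, 1 of 4 (Mixl1) had an unadjusted p under 0.05 and 0 were called by DESeq2, against 9.7% of all genes by edgeR and 22.7% at an unadjusted p under 0.05.

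Tbx6 (0.14, 95% interval -0.38 to 0.66, without LIF; -0.18, -0.81 to 0.45, with LIF) was not separated from 0 with Dox. Foxa2, the forkhead factor of the anterior streak, node and endoderm, passed the filter in this line only through the -LIF -Dox libraries. It was at 10.4, 11.9, 14.99 and 15.6 normalised counts there and at 6.52, 8.17, 8.88 and 9.86 in -LIF +Dox. The groups did not overlap, but the log2 fold change of -0.58 had an interval of -1.87 to 0.70 (adjusted p = 0.557).

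Whether the added Otx2 guide altered the Dox response without LIF was tested as the difference between the lines, each against its own libraries without Dox. None of the 5 tested members was called by edgeR or DESeq2, and 1 (Mixl1) had an unadjusted p under 0.05, where 0.0308% of all genes were called and 5.69% had such a p. For Mixl1 the difference was 1.16 (95% interval 0.22 to 2.11, adjusted p = 0.765), for Eomes 0.51 (-0.28 to 1.29) and for T -0.02 (-1.75 to 1.72). Otx2 itself differed by 1.57 (SE 0.25, adjusted p = 0.00914). A direct comparison of -LIF +Dox libraries, in which line and name series cannot be told apart, called none of the 5 members by either tool (edgeR called 41.0% of all genes, and 49.2% had an unadjusted p under 0.05). There 2 members had an unadjusted p under 0.05, Eomes (-0.59, adjusted p = 0.0802) and T (-1.34, adjusted p = 0.0784). T was called without Nanog -LIF +Dox C2-2 (-1.66, adjusted p = 0.0475) or Nanog/Otx2 -LIF +Dox C1ON3-1 (-1.95, adjusted p = 0.028), and its log2 fold change was -0.55 (adjusted p = 0.533) without Nanog -LIF +Dox C1-1b.

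In 44iN cells, where Dox drives a transgene instead of the endogenous gene, Eomes again lay higher with Nanog. However, edgeR on all these libraries, with the filter on low counts and no replicate block, called no gene. Eomes was at 406 and 367 normalised counts with Dox and at 202 and 180 after 24 h without it, with no overlap. The difference in log2 was 1.11 (SE 0.32, 95% interval 0.31 to 1.91, adjusted p = 0.508). Mixl1 was at 10.9 and 4.67 with Dox and at 14.4 and 26.6 without it (-1.21, 95% interval -2.81 to 0.39), and it passed the filter only through the libraries without Dox. Neither of the 2 tested members was called by edgeR without the block or by DESeq2, and 1 (Eomes) had an unadjusted p under 0.05. EdgeR called 0.0% of all genes, with 7.12% at an unadjusted p under 0.05. Nanog itself, whose groups did not overlap, had an edgeR adjusted p of 0.0902 here, at a log2 fold change of 4.56. T was at 6.94 and 4.67 with Dox and 24.0 and 8.87 without it, on 3 to 10 counts.

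**Figure D4:**
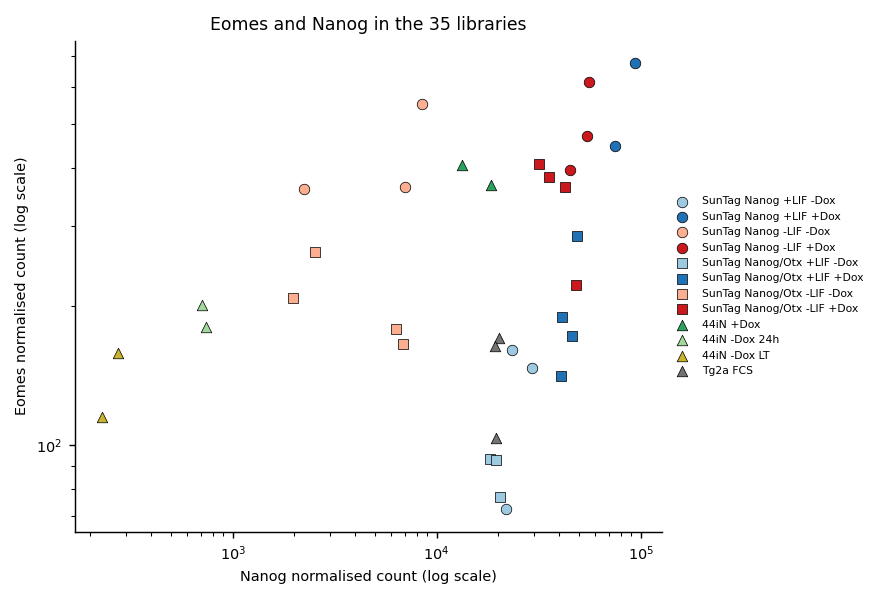
Normalised counts of Eomes against Nanog in the 35 libraries (both axes log), by condition. In SunTag cells in LIF without Dox and in Tg2a cells Eomes lies at 72.4 to 171, and in the SunTag libraries with Dox at 141 to 677, while -LIF -Dox libraries reach 551 at Nanog levels of 8484 or less.

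Long-term Nanog-null 44iN cells and wild-type Tg2a cells, which also differ in line and history, gave the only call of T in the edgeR fits of all libraries with the filter and no block. T was at 30.3, 93.2 and 75.5 normalised counts in Tg2a, the condition with its highest mean, and at 11.02 and 5.45 in long-term Nanog-null cells. The log2 fold change was -3.05 (SE 0.60, adjusted p = 0.0221), and T was the 1 call among 4 tested members (T, Eomes, Mixl1 and Foxa2), where 8.61% of all genes were called and 5.26% lower. T passed the filter through Tg2a alone, where it was high. The call was lost without long-term library 1 (-3.69, adjusted p = 0.18), long-term library 2 (-2.70, 0.185) or Tg2a library 2 (-2.71, 0.0673). Eomes (-0.17, 95% interval -0.90 to 0.55) and Mixl1 (0.13, -1.06 to 1.33) were not separated from 0 between these lines.

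Foxa2 (chromosome 2, 147868613 to 147872705, minus strand; ENSMUSG00000037025) had its highest means in these lines. It was at 106 and 79.7 normalised counts in long-term Nanog-null cells and at 58.4, 31.3 and 46.2 in Tg2a. In the other 44iN libraries it was at 1.56 to 7.20, and in 25 of the 26 SunTag libraries at 20.1 or less. The exception, at 46.3, was the shallowest library, in which it rested on 10 counts. Between long-term cells and Tg2a the log2 fold change was 0.96 (95% interval 0.18 to 1.74, adjusted p = 0.118). The summed level of 10 extraembryonic endoderm genes (Gata6, Sox17, Dab2, Cubn and others) was 12520 to 25860 in these 5 libraries and 304.8 to 3348 in the other 30. In long-term cells 9 of the 10 had counts and Ttr was at 0 in both libraries, in Tg2a none of the 10 was at 0 in every library, and Gata6 was at a mean of 1222 normalised counts in long-term cells and 641 in Tg2a. The part of such cells in the level of Foxa2, which extraembryonic endoderm also expresses, was not tested.

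**Figure D5:**
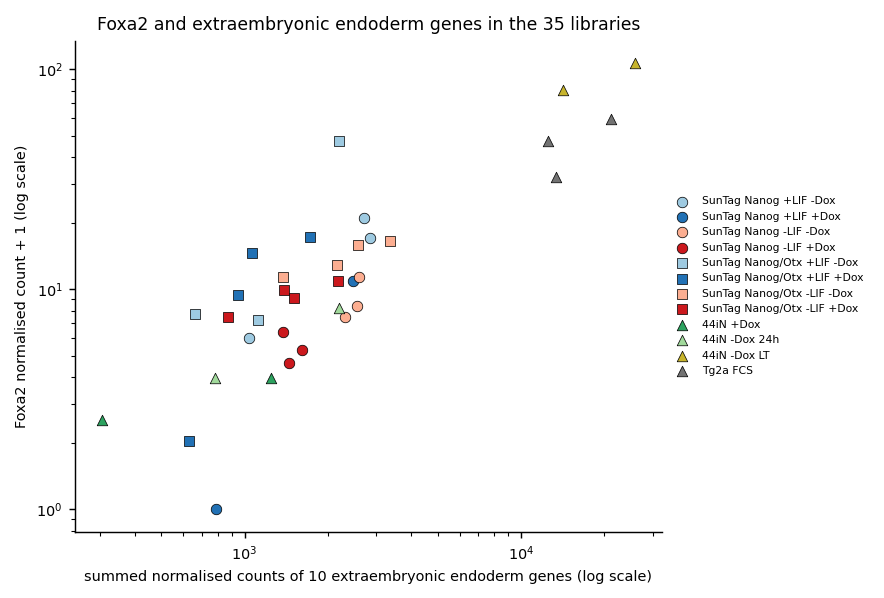
Normalised count + 1 of Foxa2 against the summed normalised counts of 10 extraembryonic endoderm genes in the 35 libraries (both axes log). The 5 long-term Nanog-null and Tg2a libraries lie apart at sums of 12520 or more and at 31.3 to 106 normalised counts of Foxa2.

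Gsc, Lhx1, Mesp1 and Cer1 passed the filter in no model, and their values are given without a main test. Gsc, a homeobox repressor of the organiser, had a count in 14 of the 15 Nanog/Otx2 libraries (at most 11 counts, 18.5 normalised counts) and in 4 of the 11 Nanog libraries (at most 3 counts). In Nanog/Otx2 cells it was at 6.71, 3.97 and 18.5 normalised counts in +LIF -Dox and at 3.01, 3.96, 2.50 and 4.45 in -LIF -Dox, so these counts were present without Dox. With Dox it was at 4.07 to 11.5 with LIF and at 8.39, 0, 1.27 and 5.92 without it. Without the filter the direct difference between the lines in -LIF +Dox was 2.54 (SE 1.05, adjusted p = 0.0649).

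Lhx1, a LIM homeobox factor of the anterior mesendoderm, had 0 counts in all 3 Nanog +LIF -Dox libraries, which allows up to 3.75 to 8.03 normalised counts there. In the Nanog line without LIF it was at 1.63, 9.05 and 3.69 without Dox and at 2.09, 9.43 and 3.61 with Dox. Without the filter its log2 fold change on LIF withdrawal in Nanog/Otx2 cells was 3.50 (SE 1.41, adjusted p = 0.0446), from 0, 0 and 4.63 to 2.34, 6.60, 9.16 and 2.23, on at most 11 counts. In 44iN cells it was at 15.9, its highest value in any library, and 9.33 with Dox, and after 24 h without Dox it was at 4.80 and 2.96. Mesp1, the factor of early cardiac mesoderm, stayed at or under 5.03 normalised counts, and Cer1, a secreted inhibitor of Nodal, Bmp and Wnt signals, at or under 5.75. Cer1 had 0 counts in all 6 SunTag libraries in LIF without Dox. At these depths changes of the last pair were not detectable.

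Across conditions the order of Eomes ran from Nanog +LIF +Dox (562 ± 163, SD, n = 2), Nanog -LIF +Dox (494 ± 113, n = 3) and Nanog -LIF -Dox (425 ± 109, n = 3) to Tg2a (146 ± 37.0, n = 3), long-term 44iN (137 ± 30.5, n = 2), Nanog +LIF -Dox (127 ± 47.7, n = 3) and Nanog/Otx2 +LIF -Dox (87.6 ± 9.04, n = 3). Neighbours in this order overlapped except at 1 step, between 44iN after 24 h without Dox (191 ± 14.96, n = 2) and Tg2a. Mixl1 ran from Nanog -LIF -Dox (52.4 ± 12.1, n = 3) and Nanog/Otx2 -LIF -Dox (34.5 ± 8.43, n = 4) down to 44iN with Dox (7.78 ± 4.41, n = 2), and every neighbour overlapped. Tbx6 stood at 11.2 to 57.8 in all 26 SunTag libraries and at 0 to 12.4 in the 9 libraries of 44iN and Tg2a cells.

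Over the 26 SunTag libraries and 15704 genes, the profile most like that of Eomes (Pearson r of log2 values) was Mpped2 (r = 0.877), followed by Trim44 (0.872) and Sept6 (0.856). For Mixl1 it was Fam184b (0.912), for T Pcdha4 (0.817) and for Tbx6 Pnpla7 (0.847). The points share conditions, clones and library series, and the values are descriptions.

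The other genes of the streak pathways, a list of 41, moved in both directions with LIF. On LIF withdrawal in Nanog SunTag cells 9 of the 32 tested were higher and 14 lower, beside 20.2% and 21.3% of all genes. Wnt3, which induces the streak, had a log2 fold change of 4.92 (SE 1.15, adjusted p = 0.00516), with a mean of 69.1 normalised counts without LIF and 1.67 with it. For Wnt8a it was 4.49 (SE 0.86), with means of 41.6 and 1.68. With such means neither passed the filter on low counts through the +LIF -Dox libraries. Both entered the test through conditions where they were higher, and their fold changes rest on few counts in LIF. The Wnt effector Lef1 rose by 2.22 (SE 0.31) and Foxh1, the nuclear partner of Nodal signalling, by 1.73 (SE 0.25). Nodal (-0.78, SE 0.21), its co-receptor Tdgf1 (-1.85, SE 0.21) and Bmp4 (-2.52, SE 0.22) fell. In the Nanog/Otx2 line 10 of 30 were higher and 12 lower, beside 24.6% and 25.2% of all genes, with Wnt3 at 2.80 (SE 0.43), Nodal at -0.80 (SE 0.14) and Bmp4 at -2.84 (SE 0.18). Of the ligands and other signals upstream of the streak, 9 were tested and 5 rose and 4 fell in each line, with a median log2 fold change of 1.56 in the Nanog line beside -0.05 over all genes tested. Of the genes of the anterior and definitive endoderm and node, 0 of 8 rose and 5 fell in the Nanog line (median -1.42). These were Chrd, Hhex, Gata4, Gata6 and Sox17. Gata4, Gata6 and Sox17 are also in the list of extraembryonic endoderm genes, so their fall is not particular to definitive endoderm. Of 7 tested in the Nanog/Otx2 line 1 rose and 2 (Chrd and Hhex) fell (median -0.67).

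Dox without LIF was compared in the same list. In the Nanog line 3 of the 32 tested were called higher and 1 lower, beside 3.6% and 1.54% of all genes. In the Nanog/Otx2 line 4 of 30 were called higher and 1 lower, beside 11.2% and 6.15%. Higher in both were Bmp4 (1.43, SE 0.21, and 1.06, SE 0.17), the Wnt inhibitor Notum (3.01, SE 0.32, and 3.17, SE 0.35) and Evx1, a homeobox gene of the posterior streak (2.56, SE 0.48, and 3.94, SE 0.50). Evx1 went from a mean of 17.5 to 99.9 normalised counts in the Nanog line and from 3.14 to 46.8 in the Nanog/Otx2 line. Furin, a protease that processes Nodal, was lower in the Nanog line (-0.90, SE 0.23, adjusted p = 0.0467), and Wnt8a in the Nanog/Otx2 line (-1.02, SE 0.27, adjusted p = 0.0192). With LIF, 1 of the 32 tested was called higher and 2 lower with Dox in the Nanog line, where 0.563% of all genes were called, and 1 of 30 higher and 5 lower in the Nanog/Otx2 line, where 22.9% were. Evx1 was the higher one in the Nanog line (3.20, SE 0.62, adjusted p = 0.0476) and Nkd1, a Wnt target and inhibitor, in the Nanog/Otx2 line (1.56, SE 0.30). Lef1 was lower in both lines (-2.51, SE 0.38, and -1.35, SE 0.22), and Nodal in the Nanog/Otx2 line (-0.97, SE 0.14).

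Line and name series cannot be told apart between Nanog/Otx2 and Nanog cells in -LIF +Dox. There 5 of the 32 tested pathway genes were higher and 3 lower in Nanog/Otx2 cells, beside 20.1% and 20.9% of all genes. The Nodal-related ligand Gdf1 had a log2 fold change of 2.85 (SE 0.43, edgeR adjusted p = 3.53e-05), the Nodal inhibitor Lefty1 one of 2.47 (SE 0.85, adjusted p = 0.0234) and the Bmp antagonist Chrd one of 1.22 (SE 0.36, adjusted p = 0.0103). Bmp4 (-0.89, SE 0.18), Evx1 (-1.16, SE 0.41) and the chemokine receptor Cxcr4 (-1.07, SE 0.37) were lower. When each line was set against its own libraries without Dox, the Dox effects without LIF differed between the lines for 0 of 32. Of all genes 0.0308% were called for that difference. In long-term Nanog-null cells against Tg2a, 1 was called higher and 1 lower, beside 3.35% and 5.26% of all genes. Pdgfra, which mesoderm and extraembryonic endoderm share, was higher (1.21, SE 0.21, adjusted p = 0.0145) and Bmp4 lower (-2.34, SE 0.42, adjusted p = 0.0179). In 44iN cells 0 of them were called between Dox and its removal for 24 h. With Nanog in place of LIF, 6 of the 32 tested were higher and 12 lower, where 28.1% of all genes were called in either direction. Evx1 was at a log2 fold change of 3.97 (SE 0.57) and Wnt8a of 3.29 (SE 0.89) above cells in LIF, where Wnt8a had few counts. Mesp2, Sox17 and Gata6 were at -1.17, -1.98 and -2.62, and Sox17 and Gata6 are also among the extraembryonic endoderm genes.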

How the data were processed

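Stranded reads were aligned to mm9 with STAR and assigned to genes with RSEM by the authors, who deposited rounded estimated counts. Their second deposited table is a signal, each estimated count scaled by the library's DESeq2 size factor over all 35 libraries, and is called normalised counts here. The 2i libraries of Tg2a are not used.

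Estimated counts were tested with edgeR 4.0.16 (TMM, quasi-likelihood test, R 4.3.3). A gene entered a model when 1 of its conditions had no library under 10 normalised counts, and it was called at a Benjamini-Hochberg adjusted p under 0.05. The 11 Nanog libraries, the 15 Nanog/Otx2 libraries, all 26 SunTag libraries (differences between lines), 4 44iN libraries, and 5 long-term and Tg2a libraries were each fitted without a clone term, as in the study's methods. SE is the log2 fold change divided by the root of F, and intervals (95%) use the degrees of freedom of the fit. Alternatives were DESeq2 1.42.0 (Wald test without independent filtering), its size factors in edgeR, no filter, a replicate block, and leaving out each library.

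Clones are shared cell lines. Deviations from condition means correlated at a median of 0.191 (22 pairs) within clones of Nanog cells, against -0.187 between them. In Nanog/Otx2 cells the median was 0.336 (21 pairs) within clone and number, against -0.18 for other pairs. As deviations cancel out within a condition, positive values within clones go with negative ones between them. The numbers are those of the sample titles, and Nanog/Otx2 +LIF -Dox C2ON3-1 has another number in its deposited column name. A pair of Nanog -LIF +Dox libraries of C1 with the same number differed by more than sampling noise (mean chi-square per gene 23.0, over all pairs of 1 condition 9.15 to 200.1) and were counted separately. The scripts were tested on simulated counts first, with log2 fold changes of 1.0 in either direction. For Dox without LIF 26.2% of these were called in the Nanog line and 69.8% in the Nanog/Otx2 line. The direct comparison of the lines called 53.5%, the long-term comparison 31% and 44iN cells 1.06%. A change of that size could thus often be missed.

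The genes named are the 9 regulators in every comparison, the targeted Nanog and Otx2, lists of 41 pathway genes and of markers as counts with called examples, and the genes of most similar profile. The members and lists were chosen with earlier results of these data known. Exon lengths and positions are those of an mm9 annotation, and promoter windows those of RefSeq. Python 3.11.15 (pandas 2.3.3, numpy 2.4.6, scipy 1.17.1) was used for tables.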

Additional observations from a re-analysis of the deposited data

Results flagged for a closer look

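A library was marked when it stood apart from the others of its condition by Dixon's criterion, in 27 sets of 4 libraries, 1 member and 1 condition each, of which chance marks about 1 in 20. T was highest in the Nanog/Otx2 -LIF +Dox library C1ON3-1, at 15.8 normalised counts (17 counts), where the other 3 were at 4.603, 5.08 and 5.84. The same library had the lowest Eomes of its condition. Cer1 was lowest in the Nanog/Otx2 -LIF -Dox library C1ON3-2, at 0.0 normalised counts, where the other 3 were at 2.23, 2.34 and 2.50, on 2 to 7 counts.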

How the results depend on the processing

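Of 956 values of 52 member results under the alternatives, 880 kept their direction and side of the threshold, 20 lost the call, 13 gained one, 0 reversed and 43 changed sign with neither called. On LIF withdrawal 2 or 3 members were called in each line in every setting run, the third being T in the Nanog line with DESeq2, and in the Nanog/Otx2 line Tbx6 with DESeq2 or Lhx1 without the filter. Without the filter, the count fell from 1 to 0 for Dox without LIF in the Nanog line and rose from 0 to 1 for its interaction, which was also 1 with DESeq2 and with the replicate block. The replicate block gave 1 for the Nanog/Otx2 interaction (0 without), 1 for 44iN cells (Eomes, 1.11, adjusted p = 0.000856, 0 without) and 2 for the long-term comparison (Foxa2, 0.99, adjusted p = 0.0132, 1 without), and it changed no other call of a member. In 44iN and Tg2a libraries the number is only a name, and deviations of like-numbered libraries correlated positively in 44iN cells (2 pairs) and at 0.0785 to 0.253 in the long-term comparison. With each library left out in turn the count ran from 0 to 1 for Dox without LIF in both lines, Dox with LIF in the Nanog line, the Nanog/Otx2 interaction, the direct comparison of the lines and the long-term comparison. The causes were not tested.

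Over all genes, Dox without LIF in the Nanog line gave 803 calls, 1509 with DESeq2 and 1375 with the block. Dox with LIF gave 88, 151 without the filter, 587 with DESeq2 and 293 with the block, and the interaction 302, 877 with DESeq2 and 709 with the block. In the Nanog/Otx2 line the block took 2702 to 5215 (Dox without LIF), 3577 to 6401 (with LIF) and 1514 to 3407 (interaction). The difference between lines gave 5, 41 with DESeq2 and 8 with the block. The long-term comparison gave 1286, 2294 with DESeq2 and 4840 with the block. 44iN cells gave 0, with 1023 at an unadjusted p under 0.05, 434 without the filter, 141 with DESeq2 and 1912 with the block. Depth limits Gsc, Lhx1, Mesp1 and Cer1, since 3 counts correspond to 0.895 to 13.9 normalised counts.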
